A study of Mus musculus with 16 samples.

Results

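The 38 nuclear genes named as subunits of respiratory complex I were followed across single cells of the heart. They are every gene in the table whose symbol begins with Nduf followed by a, b, c, s or v, apart from the assembly factors (Ndufaf) and symbols ending in -ps, which gave 38 of 36950 genes. The cells came from the left ventricles of male mice in a pressure-overload model, TAC (transverse aortic constriction), which narrows the aorta. Counts of unique molecular identifiers (UMIs) were deposited for 11492 cells of 16 mice. The labels give 5 stages, 0w (2 mice), 2w (2 mice), 5w (7 mice), 8w (3 mice) and 11w (2 mice), with w for weeks. They give no strain, age or genotype, and do not say whether the 0w mice were operated on. Slices of tissue were digested either with protease and collagenase, which favours myocytes, or with a papain enzyme for other cells, per the labels. The authors' annotation names cardiomyocytes (CM, 5656 cells), endothelial cells (EC, 1858), fibroblasts (FB, 1775), macrophages (MP, 1413), T cells (T, 606) and GN (181), which the labels do not explain.

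Complex I, the NADH:ubiquinone oxidoreductase, is the entry point of electrons from NADH into the respiratory chain and pumps protons across the inner mitochondrial membrane. It is L-shaped. The N module at the tip of the matrix arm oxidises NADH, the Q module below it passes electrons to ubiquinone, and the membrane arm moves protons. Its catalytic centre is built from nuclear core subunits, such as Ndufv1, Ndufv2, Ndufs1, Ndufs3, Ndufs7 and Ndufs8, and from mitochondrially encoded Nd subunits in the membrane. The remaining nuclear subunits are accessory and stabilise the complex. Heart muscle, which contracts without pause, is among the tissues richest in mitochondria.

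Levels are given as CPM, the UMIs of a gene or gene group per 1000000 non-mitochondrial UMIs of the same mouse and cell type, for mice with at least 10 cells of that type. The marker genes of the 5 named types were each highest in their own type, all 7 for CM, EC, FB and MP and all 6 for T. Cells came from 12 plates of the authors' annotation, here called A to L. CM of 0w came mostly from plate A, of 2w from C and of 11w from K. Those of 5w came mostly from G and H and those of 8w mostly from J. Each of these plates held only cells of that stage, so that stage and plate cannot be told apart for their CM. Plate E held 5w replicate 1 and 8w replicate 1, with 54 and 123 CM, and stood apart. The 7 CM markers summed to 11219 and 15408 CPM in its CM, against 25069 to 94970 CPM in the CM of the other 12 mice, and the 7 FB markers to 9147 and 7117 CPM, against 1288 to 3497 CPM. All 7 markers of both lists were detected in both mice of plate E. The non-mitochondrial total also held 4 predicted genes that lead the counts, Gm13339, Gm13340, Gm13341 and Gm26924. The annotated transcripts of Gm13339, Gm13340 and Gm13341 aligned at 96.7%, 97.6% and 95.9% identity to mitochondrial mt-Nd2, mt-Co1 and mt-Co2. The 4 genes took 9.20% to 52.5% of a mouse's CM total, with 38.7% and 52.5% at 11w and 23.4% and 24.4% at 0w, so levels are also given with these genes left out of the total.

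Nuclear complex I genes were higher in CM than in EC, FB, MP and T. Summed over the 38 genes, their level was 32432 ± 10722 CPM in CM (SD, n = 14 mice), against 16646 ± 6406 CPM in EC (n = 13), 12841 ± 3213 CPM in FB (n = 12), 18471 ± 7597 CPM in MP (n = 16) and 16155 ± 5997 CPM in T (n = 11). Mice of different types overlapped, as the plot of levels by cell type shows, because both CM and the other types varied widely between mice. Within a mouse, the CM level was above that of EC in 12 of 12 mice, of FB in 10 of 10, of MP in 14 of 14 and of T in 8 of 9. The median ratios of CM to EC, FB, MP and T were 1.68, 2.20, 1.51 and 1.68. The exception was 11w replicate 1, with 15768 CPM in CM and 16312 CPM in T. Among the other types, the means of EC, MP and T differed by less than the SD between mice, and the mean of FB was the lowest.

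**Figure D1:**
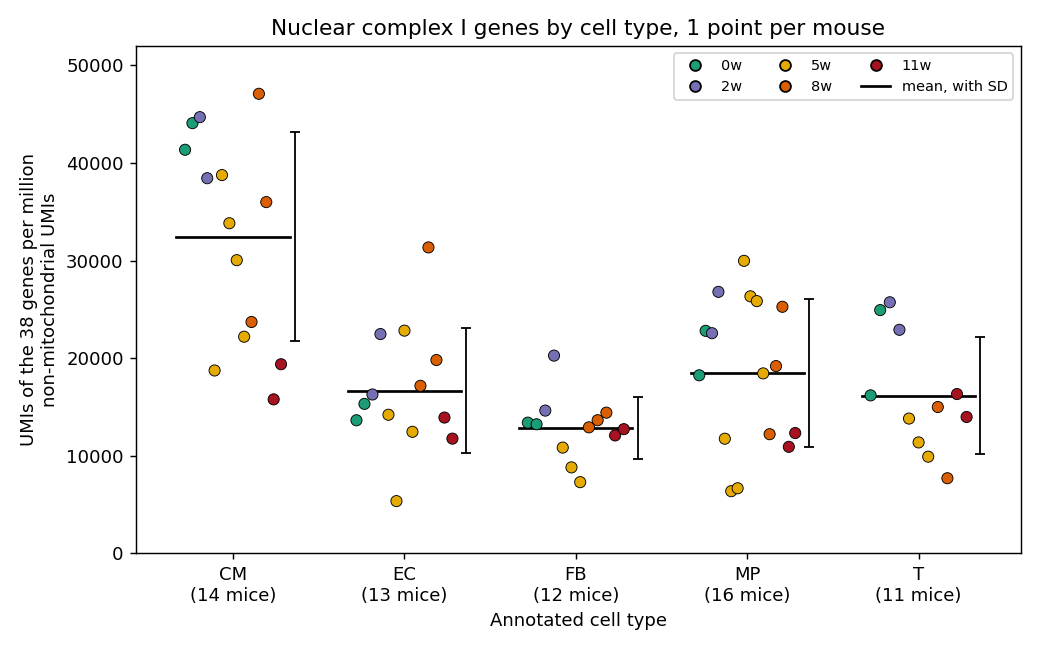
Summed level of the 38 nuclear complex I genes (y axis, UMIs per 1000000 non-mitochondrial UMIs) by annotated cell type (x axis). Each point is a mouse with at least 10 cells of the type, coloured by stage, with the mean as a line and the SD as a bar. CM average 32432 CPM, against 12841 to 18471 CPM in the other 4 types. The 2 CM points at 11w (15768 and 19369 CPM) lie in the range of the other types. So do the CM points of 5w replicates 1, 6 and 7 and of 8w replicate 1.

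Gene by gene, 34 of 38 members were higher in CM than in the mean of the other 4 types and 0 were lower, where 10.1% of all 13705 genes tested were called higher (edgeR quasi-likelihood test, mouse as a block, adjusted p under 0.05). All 38 members passed the filter on low counts in this fit. The median log2 fold change of the members was 0.82, with a range of 0.37 to 1.84, and that of all genes tested was -0.10. All 8 genes of the N module and all 8 of the Q module passed, as did 7 of 9 in the proximal and 9 of 10 in the distal membrane arm. The members not called were Ndufc2, Ndufs5, Ndufb6 and Ndufa4l2. Against single types, 25 members were called higher over EC (6.01% of all genes), 31 over FB (7.76%), 29 over MP (8.68%) and 20 over T (12.3%, the rare Ndufa4l2 included), and 0 were called lower. Cell type and plate were confounded in some of the mice. The mice of plates E, G and H had all their cells on the same plate. In some other mice, most CM came from another plate than most of the remaining cells. In 0w replicate 1, 537 of 591 cells on plate A were CM, and 14 of 678 cells on plate B. With types compared within mouse and plate, 16 of 37 members were called higher (3.66% of all genes), the median log2 fold change was 0.50, and Ndufa4l2 was not tested. Of the genes described next, Ndufs1 (1.58 ± 0.33, adjusted p = 0.000383), Ndufv1, Ndufa7, Ndufa1, Ndufab1 and Ndufa4 kept the call there. Ndufv2 (0.47 ± 0.17, adjusted p = 0.0756), Ndufs3, Ndufs7, Ndufs8 and Ndufa9 (0.44 ± 0.30, adjusted p = 0.412) did not.

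**Figure D2:**
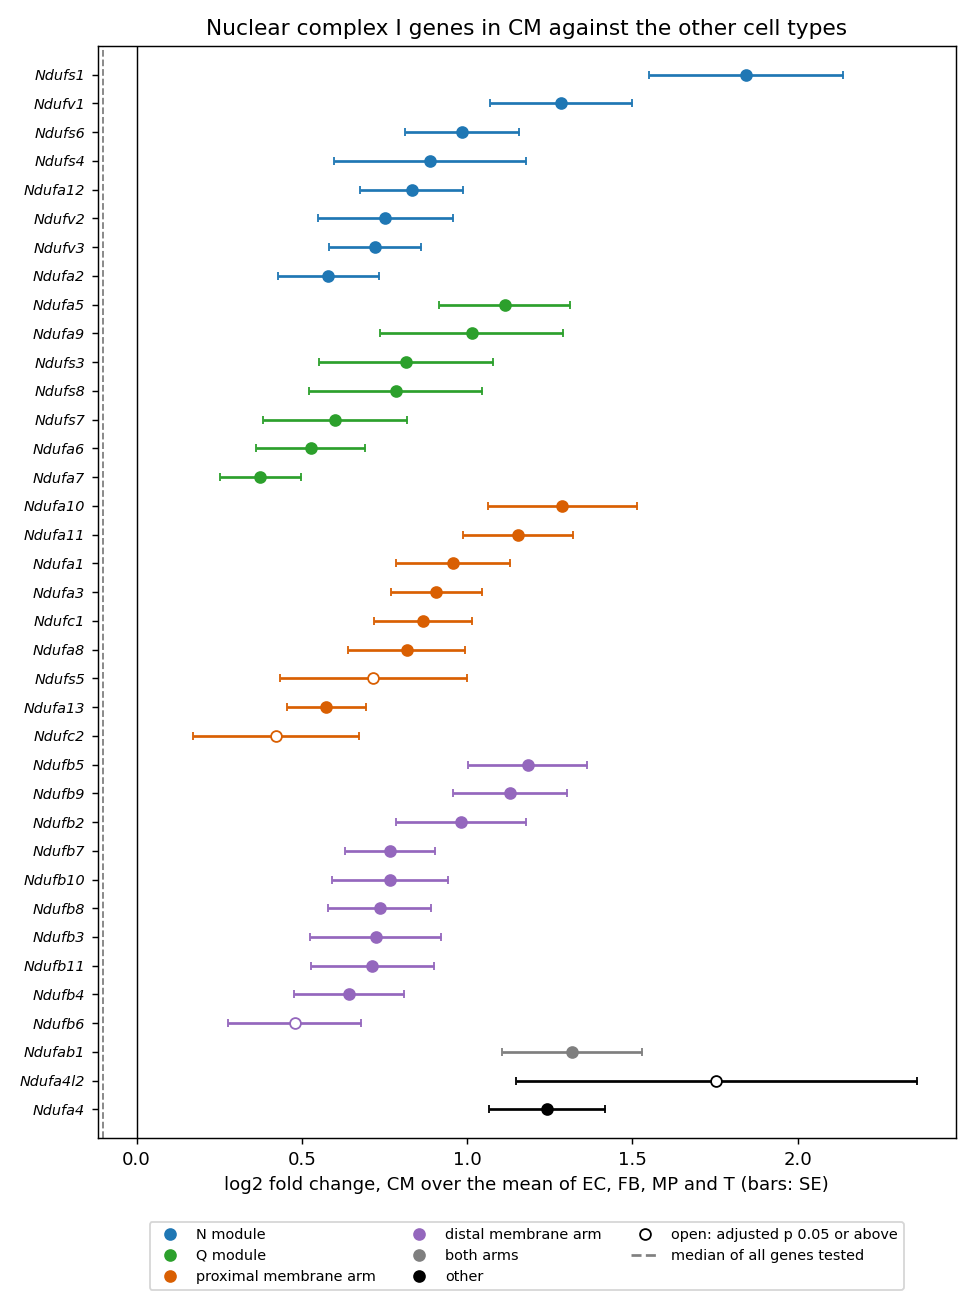
Log2 fold change of 37 of the 38 genes in CM over the mean of EC, FB, MP and T (x axis) with its SE, grouped and coloured by the part of complex I the protein belongs to. Filled points are genes past the threshold, and the dashed line is the median of all genes tested (-0.10). All 37 points lie above 0, from 0.37 for Ndufa7 to 1.84 for Ndufs1.

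In the N module, Ndufs1, the largest subunit and carrier of iron-sulphur clusters, had 119, 274 and 529 CPM in CM (lowest, median and highest of 14 mice). Its lowest, median and highest levels were 0, 59.3 and 134 CPM in EC, 12.4, 40.8 and 125 CPM in FB, 8.33, 104 and 271 CPM in MP, and 7.09, 57.4 and 231 CPM in T. The median of CM was thus above the highest mouse of each other type, while the lowest CM mouse, at 11w, lay within the range of each of them. The log2 fold change over the 4 types was 1.84 ± 0.29 (SE, adjusted p = 2.42e-06), the highest of the 38. Ndufv1, which binds the flavin that takes electrons from NADH, had 85.9, 287 and 755 CPM in CM, with medians of 71.0 CPM in EC, 69.5 CPM in FB, 104 CPM in MP and 138 CPM in T. The difference was 1.28 ± 0.21 on the log2 scale (adjusted p = 6.04e-06). Ndufv2, its iron-sulphur partner, differed by 0.75 ± 0.20 (adjusted p = 0.00484), with a median of 611 CPM in CM and medians of 272 to 436 CPM in the other types.

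In the Q module, the log2 differences of 3 core genes were 0.81 ± 0.26 for Ndufs3 (adjusted p = 0.0193), 0.78 ± 0.26 for Ndufs8 (adjusted p = 0.0241) and 0.60 ± 0.22 for Ndufs7 (adjusted p = 0.0388). Ndufs7 and Ndufs8 carry iron-sulphur clusters, and Ndufs3 is a scaffold of the arm. Ndufa9, an accessory gene at the joint of the arms, differed by 1.01 ± 0.28 (adjusted p = 0.00493). Ndufa7, another accessory gene of the matrix arm, had the smallest difference of all members, 0.37 ± 0.12 (adjusted p = 0.0223). Its levels were 609, 1100 and 1648 CPM in CM, against 378, 975 and 1743 CPM in EC and medians of 919 CPM in FB, 843 CPM in MP and 623 CPM in T, so CM and EC covered nearly the same range.

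In the membrane arm, Ndufa1, a small X-linked subunit, had 676, 1264 and 2513 CPM in CM, with medians of 553 CPM in EC, 577 CPM in FB, 691 CPM in MP and 515 CPM in T (0.96 ± 0.17, adjusted p = 2.28e-05). Ndufc2 and Ndufb6 were not called. Ndufc2 had a median of 296 CPM in CM and 296 CPM in EC, with 198, 216 and 176 CPM in FB, MP and T (0.42 ± 0.25, adjusted p = 0.243). Ndufb6 had medians of 330 CPM in CM, 185 CPM in EC, 194 CPM in FB, 219 CPM in MP and 263 CPM in T (0.48 ± 0.20, adjusted p = 0.0829). Ndufab1, the mitochondrial acyl carrier protein that sits in both arms, differed by 1.32 ± 0.21 (adjusted p = 2.89e-06).

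Ndufa4 and its paralog Ndufa4l2 meet the naming rule but lie outside these modules. Ndufa4, first described in complex I and later assigned to complex IV, had 951, 1654 and 3205 CPM in CM, with medians of 750 CPM in EC, 448 CPM in FB, 831 CPM in MP and 617 CPM in T (1.24 ± 0.18, adjusted p = 2.02e-07). Ndufa4l2, which is known to be induced by hypoxia, was rare, with 178 UMIs in 5656 CM, 448 UMIs in 1775 FB, of which 170 fell in a single cell, and 6 UMIs in 606 T. Its pooled level was 1.42 CPM in CM, against 6.75 CPM in FB, 3.34 CPM in EC, 0.866 CPM in MP and 0.364 CPM in T. The fitted difference over the mean of the 4 types was 1.75 ± 0.61 and was not called (adjusted p = 0.250). Its value was -0.59 ± 0.80 over FB (adjusted p = 0.664) and 1.44 ± 0.76 over EC (adjusted p = 0.213). Over MP it was 2.41 ± 0.79 (adjusted p = 0.111), and over T 3.76 ± 1.00 (adjusted p = 0.00412). The value over EC goes against the order of the pooled levels.

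The sums of the other types held UMIs of CM markers, and these moved with the complex I level. CM markers summed to 11219 to 94970 CPM in CM, against 1583 to 39475 CPM in EC, 570 to 6472 CPM in FB, 572 to 59744 CPM in MP and 498 to 24051 CPM in T. At 5w, the MP of the 4 mice on plates G and H had 18431 to 29970 CPM of the 38 genes and 35611 to 59744 CPM of CM markers. The MP of the 3 mice on plates E and F had 6354 to 11735 CPM of the 38 genes and 572 to 2080 CPM of CM markers. The part of these UMIs in the levels of the other types was not tested. Without the 4 mice of plates G and H, 32 of 38 members were called higher in CM (8.02% of all genes). With TMM factors, 37 were called (17.8% of all genes, 2439 higher and 706 lower, against 1387 higher and 1510 lower on the plain total) and the median of all genes shifted to 0.31.

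The modules took similar shares of the summed level in the 5 types. The proximal membrane arm gave 31.7 ± 2.2% of the members' UMIs in CM (SD, n = 14), against 31.3 ± 3.0% in FB and 32.7 ± 2.6% in EC. The distal arm gave 22.7 ± 1.5% in CM and 22.4 to 24.0% on average in the other types. The N module gave 19.7 ± 1.9% in CM and 18.3 to 20.4% on average in the other types, and the Q module 18.7 ± 1.3% in CM and 18.5 to 21.7% on average in the other types. The Q module differed most, with 21.7 ± 2.1% in FB, and no share was tested between types. GN cells, with at least 10 cells in 6 mice, ranged more widely, from 2610 CPM in 5w replicate 2 to 29979 CPM in 2w replicate 2. Their 5 granulocyte markers summed to 59320 CPM in 5w replicate 2 and 5695 CPM in 2w replicate 2, whose CM markers summed to 569 and 80854 CPM.

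Genes of the other respiratory complexes were also higher in CM. All 4 of complex II, all 9 of complex III, all 10 of complex IV and 13 of the 14 tested of complex V were called, where 10.1% of all genes were called higher, with median log2 fold changes of 0.96, 1.00, 1.06 and 1.07. Of 15 assembly factors of complex I tested, 5 were called, and the median was 1.03. Of 9 regulators of mitochondrial genes, 5 were called higher and 0 lower. They were Ppargc1a (3.16 ± 0.59, adjusted p = 5.05e-05), Ppargc1b (2.54 ± 0.61, adjusted p = 0.00136), Esrrb, Esrrg and Ppara, which code for coactivators and nuclear receptors of the oxidative programme. Nrf1, Gabpa, Tfam and Esrra were not called, with log2 fold changes of -0.15, -0.52, -0.30 and 0.96. Complex I was not tested against the other complexes.

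The 38 genes, all protein coding, are spread over 15 chromosomes. For 33 of them a promoter of 300 bases, 250 before to 50 after the gene start, was in the RefSeq table for GRCm38.p6. Both strands were searched for TCAAGGTCA, bound by estrogen-related receptors, GCGCATGCG, bound by nuclear respiratory factor 1, and CCGGAAGT, bound by ETS factors such as GABPA. The first was in 0 of 33 promoters (0.466% of 27025 genes), the second in 2 of 33, or 6.06% (1.95% of all), and the third in 1 of 33, or 3.03% (4.31% of all). A match to these letters is a description of the sequence and not a measured binding site. The 3 promoters with a match are shown with the motif in capitals, and a link of the motifs to the level in CM was not tested. They are Ndufa11 (chr17:56717512-56717811, + strand, motif at -60 from the gene start), Ndufa8 (chr2:36049289-36049588, - strand, reverse complement of the motif at -9) and Ndufs3 (chr2:90904672-90904971, - strand, reverse complement of the ETS motif at 0).
Ndufa11: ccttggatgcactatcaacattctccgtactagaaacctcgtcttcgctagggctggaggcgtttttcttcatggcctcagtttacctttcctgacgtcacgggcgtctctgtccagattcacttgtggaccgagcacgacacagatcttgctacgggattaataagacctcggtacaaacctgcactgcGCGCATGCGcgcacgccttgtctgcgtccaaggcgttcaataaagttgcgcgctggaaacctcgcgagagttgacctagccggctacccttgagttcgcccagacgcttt
Ndufa8: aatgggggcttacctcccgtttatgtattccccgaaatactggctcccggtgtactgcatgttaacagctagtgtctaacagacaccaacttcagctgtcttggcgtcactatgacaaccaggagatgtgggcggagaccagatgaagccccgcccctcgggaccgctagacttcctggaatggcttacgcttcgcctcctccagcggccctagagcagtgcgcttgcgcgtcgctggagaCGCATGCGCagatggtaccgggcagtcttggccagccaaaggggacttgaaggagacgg
Ndufs3: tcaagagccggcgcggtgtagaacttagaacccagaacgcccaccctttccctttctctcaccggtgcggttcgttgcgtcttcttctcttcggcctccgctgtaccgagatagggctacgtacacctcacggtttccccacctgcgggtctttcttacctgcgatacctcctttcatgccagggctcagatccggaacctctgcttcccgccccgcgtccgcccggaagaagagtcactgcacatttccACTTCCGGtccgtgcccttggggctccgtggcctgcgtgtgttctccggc
Ndufa11 and Ndufa8, both of the proximal membrane arm, had log2 fold changes of 1.15 and 0.82 in CM over the other types, and Ndufs3 had 0.81. These lie within the range of the members without a match.

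Among the authors' 11 CM subclusters, the summed level was highest in CM3 and CM10 and lowest in CM5. Pooled over mice, it was 50385 CPM in CM3, 47706 CPM in CM10 and 43979 CPM in CM1, and 25107 CPM in CM5, 28356 CPM in CM7 and 28863 CPM in CM11. The subclusters were made from the expression of these same cells, so the levels are given with no test. CM3 was the highest subcluster for 19 of the 38 genes and CM5 the lowest for 19. Leaving the 4 predicted genes out of the total, the order became CM10 (64338 CPM), CM9 (58091 CPM), CM1 (57254 CPM) and CM3 (56543 CPM), with CM5 still lowest (32480 CPM). CM9 moved most, since the 4 predicted genes took 42.7% of its total. CM5 had the lowest CM markers (22559 CPM) and, with CM4, the highest markers of other types (11591 CPM in CM5 and 12406 CPM in CM4). CM3 had 83135 CPM of CM markers and 2471 CPM of markers of other types, and the part of these markers in the order was not tested.

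**Figure D3:**
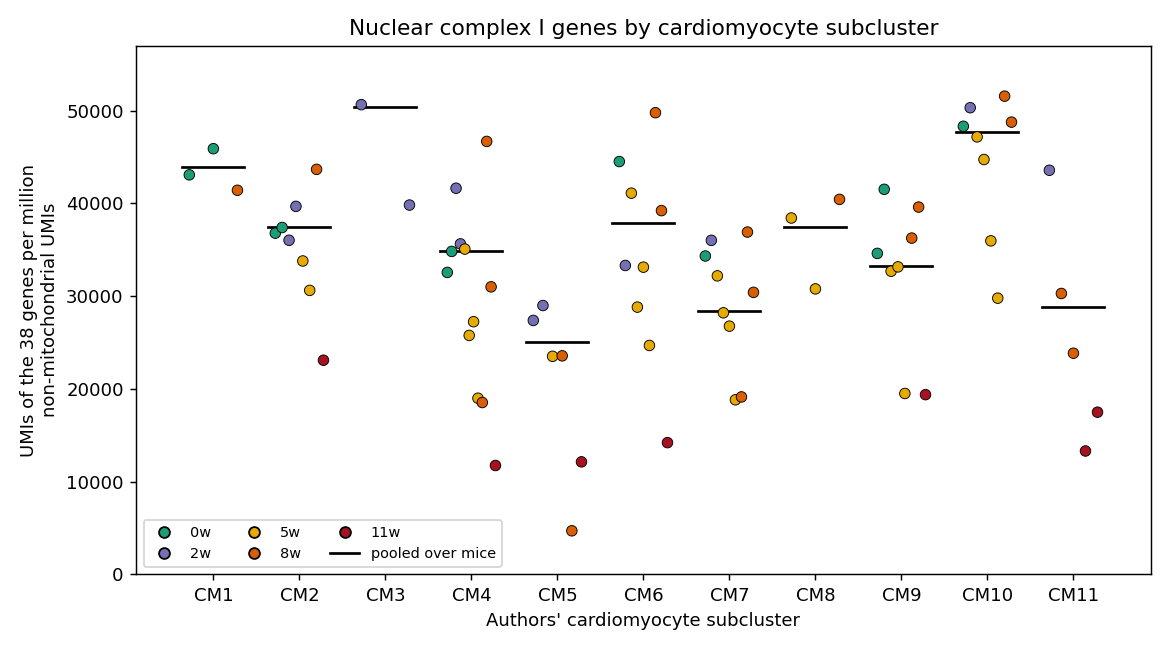
Summed level of the 38 genes (y axis, UMIs per 1000000 non-mitochondrial UMIs) in each of the 11 CM subclusters (x axis). Points are mice with at least 10 cells of the subcluster, coloured by stage, and lines are the levels pooled over mice. CM10 spans 29785 to 51582 CPM over 8 mice, CM5 spans 4686 to 28992 CPM over 6 mice, and an 11w mouse is the lowest point of CM2, CM4, CM6, CM9 and CM11.

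The subclusters were tied to stages and plates, as the plot of subclusters shows. CM3 cells came to 98.1% from 2w and to 96.7% from plate C, CM1 cells to 93.0% from 0w and CM11 cells to 64.4% from 11w. Within a subcluster, mice still differed. CM10, a subcluster with at least 10 cells in 8 mice, had 48331 CPM in 0w replicate 1 and 50336 CPM in 2w replicate 2. At 5w its levels were 47186, 44747, 35971 and 29785 CPM in replicates 4 to 7, and at 8w they were 51582 and 48780 CPM in replicates 2 and 3. CM6 had 14199 CPM in 11w replicate 1 and 44526 CPM in 0w replicate 1. In CM11, the 11w mice had 13298 and 17484 CPM, the 8w mice 30292 and 23847 CPM and 2w replicate 1 had 43584 CPM. Single genes varied between subclusters by a median ratio of highest to lowest of 2.34, from 1.74 for Ndufv3 to 4.42 for Ndufs1 among the 37 genes other than the rare Ndufa4l2.

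Across stages, CM of 11w had the lowest mean complex I level, but 0 of 38 members passed the test in any stage comparison. The summed CM level was 41356 and 44084 CPM at 0w and 44699 and 38440 CPM at 2w. At 5w it was 18729, 38762, 33824, 30038 and 22191 CPM in replicates 1, 4, 5, 6 and 7, at 8w 23700, 47095 and 35990 CPM, and at 11w 15768 and 19369 CPM. On this scale, the 2 mice of 11w lay below every mouse of 0w, 2w and 8w, while 5w replicate 1 lay below 11w replicate 2. The lowest mice of 5w and 8w were those of plate E. With the 4 predicted genes out of the total, the levels were 33209 and 31580 CPM at 11w, compared with 54694 and 57552 CPM at 0w. The mice of plate E then lay below both 11w mice, with 21140 CPM in 5w replicate 1 and 27854 CPM in 8w replicate 1. Both 11w mice lay below both 0w mice on either scale. CM markers also differed between the mice. They summed to 25069 and 31819 CPM in the 11w mice, compared with 48282 and 56168 CPM in the 0w mice, 71321 and 94970 CPM in the 2w mice and 15408 to 52163 CPM in the 8w mice, and to 11219 CPM in 5w replicate 1. Erythroid markers summed to 8100 and 88449 CPM in the 11w mice, compared with 10800 and 4249 CPM in the 0w mice. The part of these markers in the stage values was not tested.

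**Figure D4:**
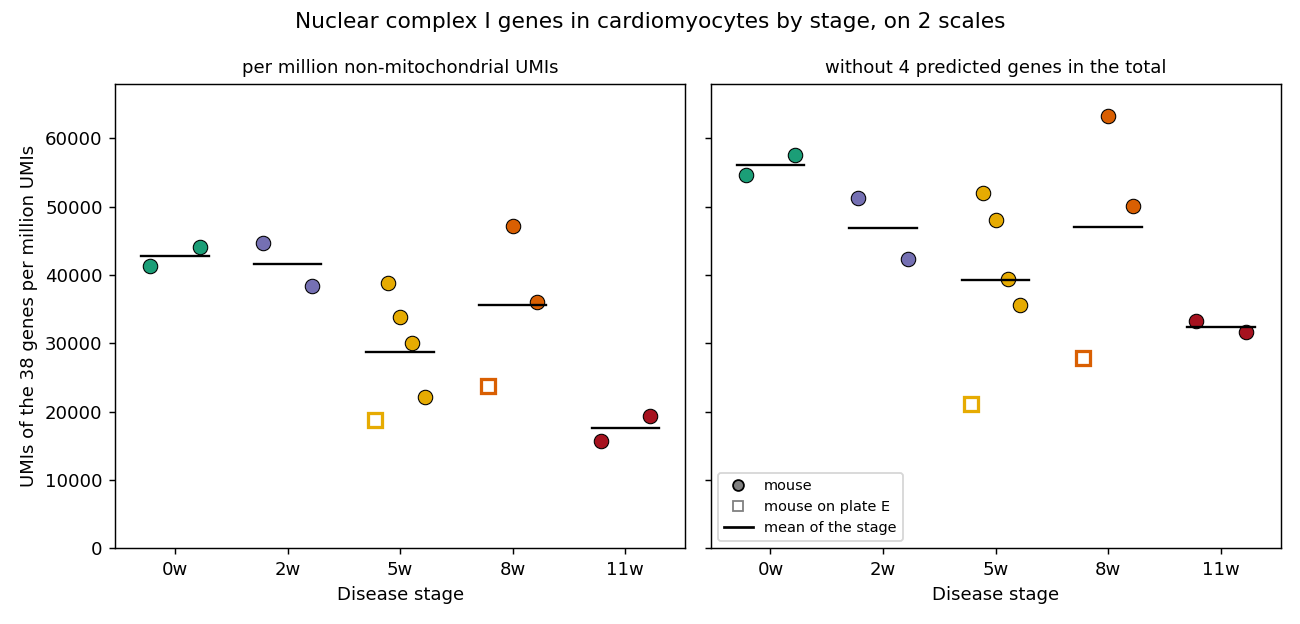
Summed level of the 38 genes in CM by stage (x axis), per 1000000 non-mitochondrial UMIs (left) and with the 4 predicted genes left out of the total (right). Circles are mice, open squares the 2 mice of plate E, and lines the stage means. The 11w mice stand at 15768 and 19369 CPM on the left and at 33209 and 31580 CPM on the right, below both 0w mice on either scale, while on the right both squares lie below the mean of 11w.

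At 11w against 0w, 37 of 38 members had a negative log2 fold change, with a median of -1.31 and a median of -0.77 over all 15131 genes tested. No member was called (0% of all genes), while 32 members had an unadjusted p under 0.05, as did 13.6% of all genes. DESeq2 called 5 members lower (2.31% of all genes). The count turned on plate E, whose mice entered only the estimate of the spread in this comparison. Without its 2 mice, 29 of 38 members were lower at 11w (6.77% of all genes were called lower), with a median of -1.30. The count turned on the scaling too. With TMM factors the medians were -0.62 for the members and -0.10 for all genes, and without plate E 0 members were then called (0.591% of all genes). The median of the members lay below that of all genes on both scalings, as the plot of 11w over 0w shows. On plate K, which held most CM of 11w, the median ratio of a cell's total to the authors' UMI number was 0.481. It was 1 on plate A, which held most CM of 0w, and the part of this in the 11w values was not tested.

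**Figure D5:**
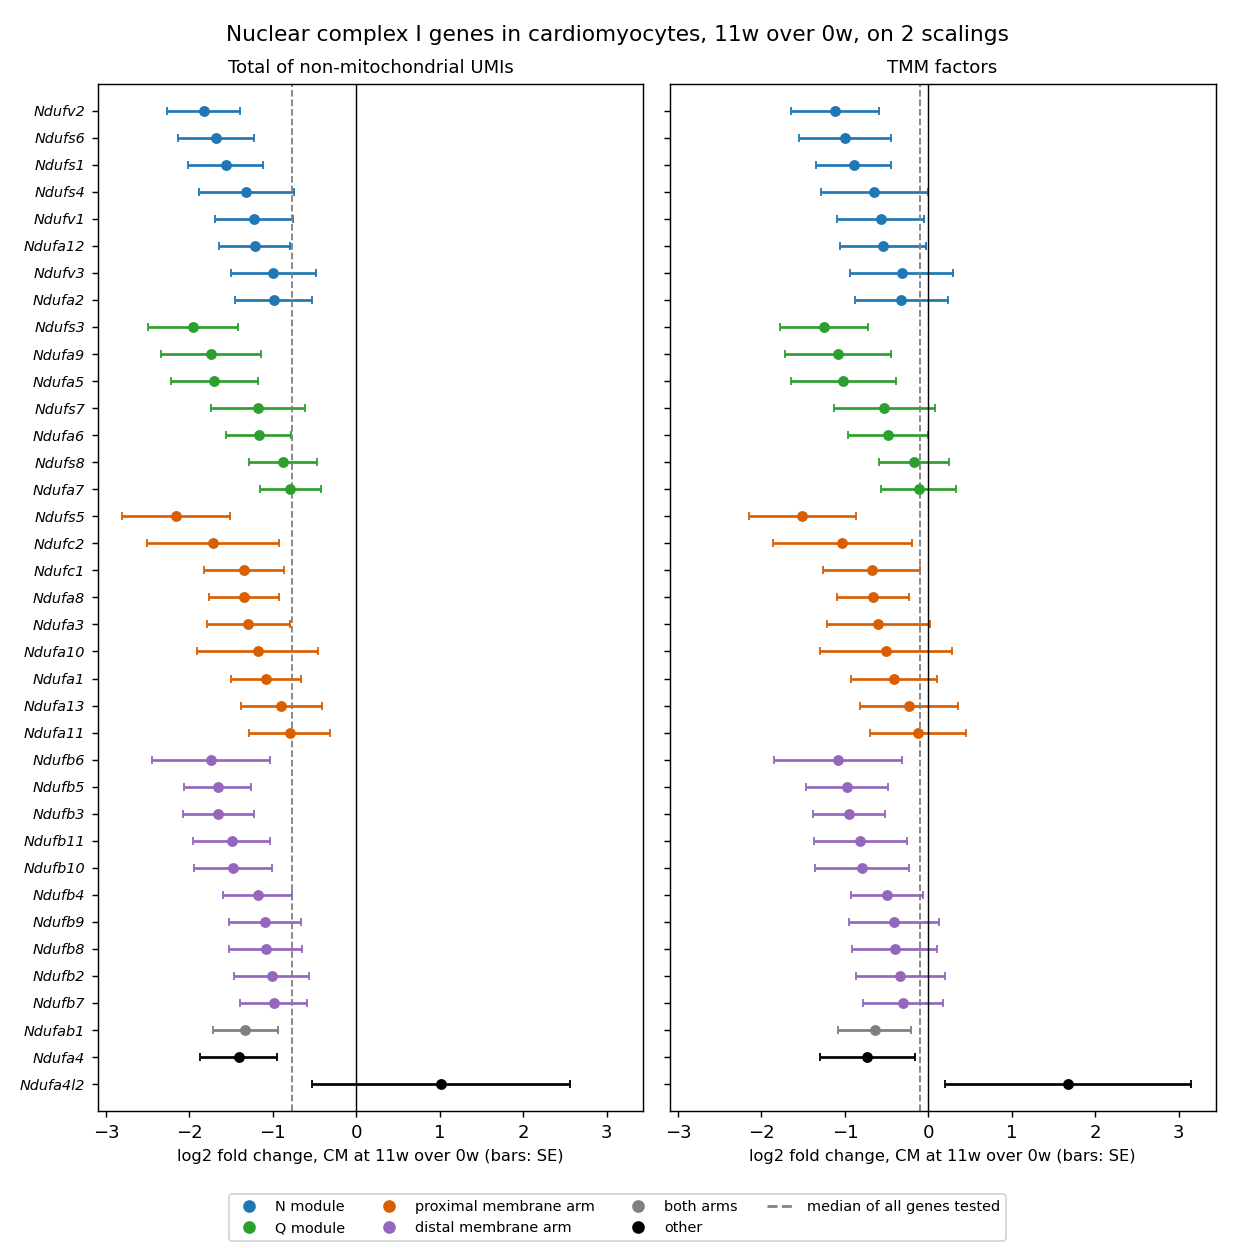
Log2 fold change of 37 of the 38 genes in CM at 11w over 0w (x axes) with its SE, per 1000000 non-mitochondrial UMIs (left) and with TMM factors (right). Colours mark the part of complex I, and dashed lines the median of all genes tested (-0.77 left, -0.10 right). Apart from Ndufa4l2 every gene shown lies below 0 on both scalings, and the medians of the 38 are -1.31 and -0.62.

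At 8w and 11w against 0w and 2w, 37 of 38 members again had a negative log2 fold change and 0 were called (0% of all genes). The median was -0.83, and -0.43 over all genes, and 25 members had an unadjusted p under 0.05, as did 13.3% of all genes. DESeq2 called 5 members lower (2.41% of all genes). Without plate E, 20 members were lower (5.88% of all genes were called lower), of which 95% were also among the 29 of 11w over 0w (65.5% of those 29). Both comparisons share mice. With TMM factors and without plate E, 0 were called (0.578% of all genes). Leaving out 5w replicate 1 alone gave 8 members lower (0.957% of all genes were called lower). At 2w, 5w and 8w against 0w the medians of the members were -0.02, -0.57 and -0.31, with 1, 11 and 1 members at an unadjusted p under 0.05 (2.52%, 6.26% and 4.61% of all genes). The medians of all genes were 0.19, 0.04 and 0.11. In these 3 comparisons 0 members were called, beside 0%, 0.00661% and 0% of all genes, and DESeq2 called 0 too.

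Of the core genes, Ndufs1 had 197, 336 and 172 CPM at 8w and 119 and 180 CPM at 11w, compared with 426 and 459 CPM at 0w and 395 and 529 CPM at 2w. The late and early mice did not overlap for Ndufs1 (-1.27 ± 0.30, adjusted p = 0.181). Ndufv1, which acts just before it, had 280, 356 and 330 CPM at 8w and 85.9 and 183 CPM at 11w, compared with 290 and 339 CPM at 0w and 674 and 755 CPM at 2w (-1.19 ± 0.31, adjusted p = 0.195). Its 8w mice lay within or near the 0w range, and its 2w mice were the highest of all.

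Ndufs3 had 74.1, 127 and 85.2 CPM at 8w and 48.4 and 27.1 CPM at 11w, compared with 125 and 168 CPM at 0w and 168 and 156 CPM at 2w (-1.36 ± 0.35, adjusted p = 0.190). Ndufa9 had 257, 359 and 209 CPM at 8w and 63.6 and 128 CPM at 11w, compared with 314 and 328 CPM at 0w and 489 and 550 CPM at 2w (-1.33 ± 0.40, adjusted p = 0.217). In both, 8w replicate 2 overlapped with the early mice and the 11w mice did not. Ndufv2 had 354 and 231 CPM at 11w, compared with 973 and 1101 CPM at 0w, a log2 fold change of -1.83 ± 0.44 (adjusted p = 0.266) and of -1.83 ± 0.29 without plate E (adjusted p = 0.00854). Ndufs7 (151 and 281 CPM at 11w, compared with 435 and 548 CPM at 0w) and Ndufs8 (263 and 190 CPM at 11w, compared with 367 and 465 CPM at 0w) were not called with or without plate E. On this scale both 11w mice lay below both 0w mice for each of these 5 genes. The median of all genes was -0.77 there, and the share of all genes with such a separation was not counted. With TMM factors the log2 fold changes of these genes at 11w over 0w ranged from -1.25 for Ndufs3 to -0.18 for Ndufs8, and none was called. The highest mouse for Ndufs8 was 5w replicate 1 of plate E, with 967 CPM.

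At the other end, Ndufa7 had 1231, 1648 and 1515 CPM at 8w and 609 and 790 CPM at 11w, compared with 1140 and 1279 CPM at 0w and 1075 and 791 CPM at 2w. Its late over early log2 fold change was -0.07 ± 0.25 (adjusted p = 0.932), and 0.34 with TMM factors. Ndufa1 had 1109, 2513 and 1882 CPM at 8w and 676 and 1053 CPM at 11w, compared with 1862 and 1793 CPM at 0w and 1467 and 1176 CPM at 2w (-0.30 ± 0.28, adjusted p = 0.672, and 0.13 with TMM factors). For Ndufa7 all 3 mice of 8w lay above the 2w mice. On this scale the 11w mice lay below the 0w and 2w mice for both genes, for Ndufa7 only by 790 against 791 CPM. The share of all genes with such a separation was not counted. Ndufa4 had 951, 2888 and 2211 CPM at 8w and 1037 and 1264 CPM at 11w, compared with 3022 and 3095 CPM at 0w and 3205 and 2305 CPM at 2w (-0.93 ± 0.31, adjusted p = 0.247). Ndufc2 and Ndufb6 had 129 and 144 CPM and 96.8 and 186 CPM at 11w, compared with 457 and 438 CPM and 453 and 491 CPM at 0w. In 5w replicate 1 they were at 18.3 and 42.1 CPM, the lowest of the 14 mice. Ndufa4l2 was the member with a positive fold change (1.34 ± 1.05, adjusted p = 0.608), and it rested on 3 and 10 UMIs at 11w and 17, 8 and 7 UMIs at 8w, against 19 and 7 UMIs at 0w and 24 and 10 UMIs at 2w.

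By module, the medians at 11w over 0w were -1.27 for the N module, -1.42 for the Q module, -1.29 for the proximal and -1.33 for the distal membrane arm. Without plate E, 6 of 8 genes of the N module, 5 of 8 of the Q module, 7 of 9 of the proximal arm and 9 of 10 of the distal arm were lower, beside 6.77% of all genes. Ndufs5, a small subunit of the proximal arm, had the lowest value, -2.15 ± 0.49 (adjusted p = 0.0225, without plate E), and is outside the rule for named genes, chosen after its value was seen. The other complexes gave like values in the same fit, with 4 of 4 genes lower in complex II, 9 of 9 in complex III, 9 of 10 in complex IV and 14 of 15 in complex V, and medians of -1.63, -1.32, -1.27 and -1.45. With TMM factors and without plate E, 1 gene each of complexes II and IV and 0 of complexes III and V were called (0.591% of all genes). Of the assembly factors 3 of 15 and of the regulators 0 of 9 were lower without plate E. Fewer transcripts of these genes and more of others per cell cannot be told apart in such shares of a total.

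Relative to the nuclear genes, UMIs of the mitochondrially encoded complex I subunits were more frequent at 11w than at 0w, in CM and in the other types. The values are given with no test. CM held 131 and 88.1 UMIs of the 7 mt-Nd genes per UMI of the 38 nuclear genes at 11w, against 14.5 and 12.3 at 0w. The ratio was 11.7 and 10.4 at 2w, 12.3, 23.2, 54.2, 40.6 and 106 at 5w in replicates 1, 4, 5, 6 and 7, and 20.6, 13.3 and 23.6 at 8w. The other types had 38.7 and 58.5 at 11w against 15.5 and 13.6 at 0w in EC, and 24.9 and 30.4 against 14.6 and 11.3 in FB. In MP the ratio was 43.2 and 54.3 against 10.8 and 11.4, and in T 21.6 and 62.4 against 15.2 and 18.5. The share of all mitochondrially encoded UMIs in CM was 88.2% and 85.4% at 11w, against 63.8% and 62.1% at 0w. The mt-Nd UMIs are part of this share, so the ratio and the share are tied by how they are computed. The part of cell quality in this share was not tested.

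In the other types, 0 members were called at 8w and 11w over 0w and 2w (0% of all genes in each type). The medians of the members were 0.06 in EC, -0.21 in FB, -0.70 in MP and -0.80 in T, and those of all genes were -0.18, 0.09, -0.21 and -0.70. Of the members, 0 of 37 in EC, 1 of 38 in FB, 3 of 37 in MP and 3 of 37 in T had an unadjusted p under 0.05 (9.19%, 9.66%, 6.61% and 12.6% of all genes). Ndufa4l2 did not pass the filter in EC, MP and T. The summed level in FB was 12901, 13631 and 14405 CPM at 8w and 12070 and 12714 CPM at 11w, compared with 13381 and 13214 CPM at 0w and 14618 and 20252 CPM at 2w, so late and early mice overlapped. In MP it was 12198, 19179 and 25258 CPM at 8w and 10903 and 12317 CPM at 11w, compared with 18237 and 22795 CPM at 0w and 22550 and 26788 CPM at 2w. CM markers in these MP sums were 4266, 13172 and 18436 CPM at 8w and 4046 and 8106 CPM at 11w, compared with 11541 and 18650 CPM at 0w and 21742 and 46156 CPM at 2w, and their part in the MP values was not tested.

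Whether the late over early difference in CM departed from that in EC, FB and MP was tested within mice. The median interaction over the members was -0.46 on the log2 scale, and -0.30 over all 13438 genes tested. No member was called (0% of all genes), and 2 had an unadjusted p under 0.05 (4.35% of all genes), Ndufb11 (-0.91) and Ndufa3 (-0.67), chosen after their values were seen. With TMM factors the median interaction was -0.14 over the members and -0.0022 over all genes, and 9 of 38 members had a positive value.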

How the data were processed

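The authors deposited a table of UMI counts per gene and cell with an annotation of type, subcluster, plate and mouse. Per the submitters' processing notes, STAR 2.5.2b and featureCounts (Subread 1.4.6-p1) were used, with builds mm10 and GRCh37 named without a role. The counts were used as deposited. In 73.9% of cells the total of non-mitochondrial counts equals the authors' UMI number, and on plates G, H and K it does not. The median ratio of the total to the authors' number was 0.545 on G, 0.805 on H and 0.481 on K, and 1 on the other plates. Plates G and H held most CM of 5w, and plate K most CM of 11w. The 34 mitochondrially encoded genes held 56.0% of UMIs and were left out, as were 3 cells without a type. The median cell had 14602 non-mitochondrial UMIs, and CM sums per mouse held 926680 to 27690918. Doublets were not called again.

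UMIs were summed per mouse and type (at least 10 cells) and tested with edgeR 4.0.16 in R 4.3.3 (filterByExpr, quasi-likelihood test, two-sided, library size the non-mitochondrial total, no factors), which was tested on simulated data. Types were compared with mouse as a block, and stages over CM of all 14 mice. P-values were adjusted by Benjamini-Hochberg over every gene in a fit, and 0.05 was the threshold. DESeq2 1.42.0 was an alternative, as were TMM and RLE factors, filters, blocks and mice left out. Alignments used blastn 2.17.0. Labels name mice as separate samples. The members and lists, and the alternatives on the predicted genes, on plates G and H and on TMM without plate E, were chosen with earlier results of these data known. Named genes were the 7 core genes, Ndufa4, Ndufa4l2, and the 3 highest and 3 lowest members in CM over other types and in late over early CM. Deviations of same-numbered mice of different stages had 1 of 16 correlations over 0.1, that of 0.207 between the 2 mice of plate E. Some of the 16 repeat each other, because deviations mirror each other in stages with 2 mice. Mice were not paired by number in the main fits, and these correlations cannot exclude a pairing. All per-sample columns were used. The values of 1 member are not reported here by name, and it is counted in all sums and counts.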

Additional observations from a re-analysis of the deposited data

Results flagged for a closer look

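Among 20 groups of 4 to 10 mice checked for a mouse far from the others, 1 stood out, as chance gives in about 1 in 20 groups. Ndufa4l2 was at 24.8 CPM in the CM of 5w replicate 1, and the gap to the next mouse was 0.764 of the range of the 5 mice at 5w. The value rests on 23 UMIs in 4 of 54 CM, and this mouse belongs to plate E.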

How the results depend on the processing

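For CM over other types, the count of 34 members lay between 31 and 36 when any mouse was left out, and was 16 with types compared within mouse and plate. The median of 0.82 became 1.27 with TMM factors and 1.27 with mitochondrial genes kept. For CM at 11w over 0w, 0 members were called in the fit as designed, 1 with no filter on low counts, 5 with DESeq2 and 29 without plate E. All genes called numbered 0, 82, 394 and 1109 in these fits. The median of -1.31 became -0.62 with TMM factors, -0.53 with RLE factors, -0.63 with mitochondrial genes kept, -0.80 without the 4 predicted genes and -0.65 with TMM factors without plate E. For 8w and 11w over 0w and 2w, the counts in the same order were 0, 1, 5 and 20 (0, 207, 427 and 978 genes), with 0 to 8 when any mouse was left out, and 8 without 5w replicate 1. Its median became -0.41 with TMM factors, -0.35 with RLE factors, -0.41 with mitochondrial genes kept and -0.28 with TMM factors without plate E. The 8w over 0w median of -0.31 was 0.03 with TMM factors without plate E. In T, leaving out a mouse gave 0 to 2 members and medians of -1.45 to -0.57, with 2 members and -1.45 without 8w replicate 1. These counts are not set beside the share of all genes called, so they are no result about the members. RLE factors gave a median of -0.42 in T, and -0.43 over all genes. In the main fit of T the medians were -0.80 for the members and -0.70 for all genes. The replicate block gave 1 member lower and a median of -0.997 for 5w over 0w, and changed no other count of members. In that fit 5 genes were called higher and 23 lower of 15131, and the median of all genes, -1.21, lay below that of the members.

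Late over early, Ndufa1 turned positive with TMM (0.13), RLE (0.18), mitochondrial genes kept (0.13), without the 4 predicted genes (0.0478) and with TMM without plate E (0.31). Ndufa7 did so under the same settings (0.34, 0.40, 0.34, 0.28 and 0.47), without 11w replicate 1 (0.02) and without 2w replicate 1 (0.0486), in a range of -0.17 to 0.0486 when any mouse was left out. Causes were not tested. With 2 mice at 0w, 2w and 11w, few mice limit the stage comparisons.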

Other observations

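The authors' annotation splits CM into groups named PI and API, which the labels do not explain. The summed level of the 38 genes was higher in API than in PI cells in 7 of 14 mice, with API over PI ratios of 0.454 to 1.95 and a median of 1.01.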
